A study of Danio rerio with 12 samples.

Results

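Whole zebrafish larvae of 4 groups were profiled by RNA-seq with 3 libraries each, and the libraries of each group carry consecutive numbers. The lowest-numbered library of every group, called set 1 here, comprises 4 of the 12 libraries: A81 (control), A75 (Tg(ifih1_mut)), A78 (control with poly I:C) and A72 (Tg(ifih1_mut) with poly I:C). The other 8 libraries are the second of each group, set 2 (A82, A76, A79 and A73), and the third, set 3 (A83, A77, A80 and A74). What the numbers stand for, such as a clutch, a day or an extraction, is not given in the sources used here. Set 1 was singled out after its expression had been seen to stand apart from the rest, so differences between set 1 and the other sets are described here with their errors and carry no test. The standard errors treat the 12 libraries as separate observations, so they are too small if libraries of the same set share a source.

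Every library was made from total RNA of a pool of 25 whole larvae at 3 dpf (days post fertilization). Tg(ifih1_mut) larvae carry a mutant transgene of ifih1, the gene of the sensor MDA5, which binds long double-stranded RNA in the cytoplasm. Poly I:C is a synthetic double-stranded RNA that triggers such sensors. The labels give neither the promoter of the transgene, the number of transgenic lines, the strain, nor the dose or duration of the stimulation. In whole-larva RNA, fewer cells of a type and less RNA per cell cannot be told apart. The labels do not say whether each pool is a clutch of its own, and p-values therefore measure only how far these pools spread, which may in part be technical.

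Several features of zebrafish biology bear on the genes that set 1 picks out. Melanocytes spread and darken over the first days of larval life and make melanin in organelles called melanosomes, with tyrosinase and related enzymes acting on a fibrillar matrix. Photoreceptors of the retina differentiate over the same days and begin to express opsins and the proteins that carry the light signal. Zebrafish stocks are often outbred, and individual fish differ in sequence and in gene copy number. The zebrafish reference therefore lists, beside the chromosomes, alternate contigs that hold a different version of some stretches, and reads from a gene can be counted on the chromosome, on a contig, or on both.

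The libraries held between 31876869 and 100839015 counts. The mean log2 total of set 1 exceeded that of the others by 0.068 (exact permutation test within groups, two-sided, p = 0.926, 81 arrangements, smallest possible p 0.0123). Between 3.83 and 5.11% of counts were mitochondrially encoded. The transgene label held in all libraries, with ifih1 at 1.92 to 2.73 CPM (normalised counts per 1000000) in the 6 control pools and 11 to 33.3 CPM in the 6 Tg(ifih1_mut) pools. The markers of retina, lens, pancreas, liver, muscle, heart, cartilage, skin, neurons, red cells and neutrophils that were checked were present in every library. The exception was mylpfa, a light chain of fast muscle myosin, which held 0.052 to 0.42 CPM on its chromosome. Its 2 copies on alternate contigs together held 2358 to 2662 CPM in set 1 and 3718 to 4762 CPM in the other sets, without overlap.

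The difference given for a gene is the log2 level in set 1 minus the mean of sets 2 and 3, from a fit that holds the group constant. A gene was counted as higher when the set 1 library exceeded both other libraries of its group in all 4 groups and the fitted difference was at least 1, which is 2-fold, and as lower in the mirror case. Of 26508 genes tested, 871 (3.29%) were counted higher and 430 (1.62%) lower, together 1301 (4.91%). Without the size condition, 2527 genes (9.53%) lay above both other libraries in all 4 groups and 2085 (7.87%) below. No overlap between set 1 and all 8 other libraries was seen for 739 of the 871 genes counted higher and 344 of the 430 counted lower. The counting rule itself favours such genes, and no share over all genes was taken. The median difference over all genes was 0.00, with quartiles at -0.15 and 0.16, and 50.8% of all genes had a positive difference.

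Large differences were frequent among the counted genes. At least 4-fold differences were seen for 341 higher and 78 lower genes, and at least 16-fold for 74 higher and 17 lower genes. Genes at low levels were counted more often: the share fell from 12.3% to 0.622% between the genes of lowest and of highest mean level when all genes were ranked and cut into 5 equal classes. Because set 1 was chosen from these same values, the shares describe it and are not evidence for it.

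Several genes for making melanin were higher in set 1 than in the other libraries of every group, and others were not. Of 30 pigment cell genes tested, 10 lay above both other libraries in every group (33.3%, against 9.53% of all genes) and 3 lay below (10%, against 7.87%), with a median difference of 0.31. The pigment genes counted higher were slc24a5, pmela, tyrp1a, tyr, mc1r, gpnmb and tyrp1b, and 1 was counted lower, mitfa.

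In set 1, pmela stood at 97.2 CPM in control, 123 in Tg(ifih1_mut), 108 in stimulated control and 117 in stimulated Tg(ifih1_mut) larvae. In the other 8 libraries the lowest value of pmela was 27.0, the median 34.4 and the highest 44.1 CPM. The gene encodes the protein of the melanosome fibrils (chromosome 11, 3254252 to 3272020 in the deposited coordinates), and its groups did not overlap, with a difference of 1.69 (SE 0.09). Tyrosinase, tyr, the rate-limiting enzyme of melanin synthesis, was at 9.09, 12.3, 11.3 and 12 CPM in set 1, in the same order of groups. Elsewhere tyr ranged from 3.36 to 4.73 CPM with a median of 3.69 CPM. All 4 set 1 values of tyr thus lay above all 8 others (difference 1.52, SE 0.11).

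The tyrosinase-related gene tyrp1a was at 37.5, 50.6, 39.1 and 41.4 CPM in set 1, and at 10.9 to 18.3 CPM, median 13.3, in the rest. For slc24a5, an ion exchanger of melanosomes whose loss gives the pale golden mutant, the set 1 libraries held 3.06, 4.46, 4.95 and 2.99 CPM. The other libraries held 0.826 to 1.64 CPM of slc24a5, median 1.02, again without overlap. The differences were 1.57 (SE 0.08) for tyrp1a and 1.87 (SE 0.19) for slc24a5. Smaller differences were seen for mc1r, the melanocortin receptor of melanocytes (1.28, SE 0.16), for gpnmb, a melanosome glycoprotein (1.17, SE 0.07), and for tyrp1b (1.08, SE 0.10).

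**Figure D1:**
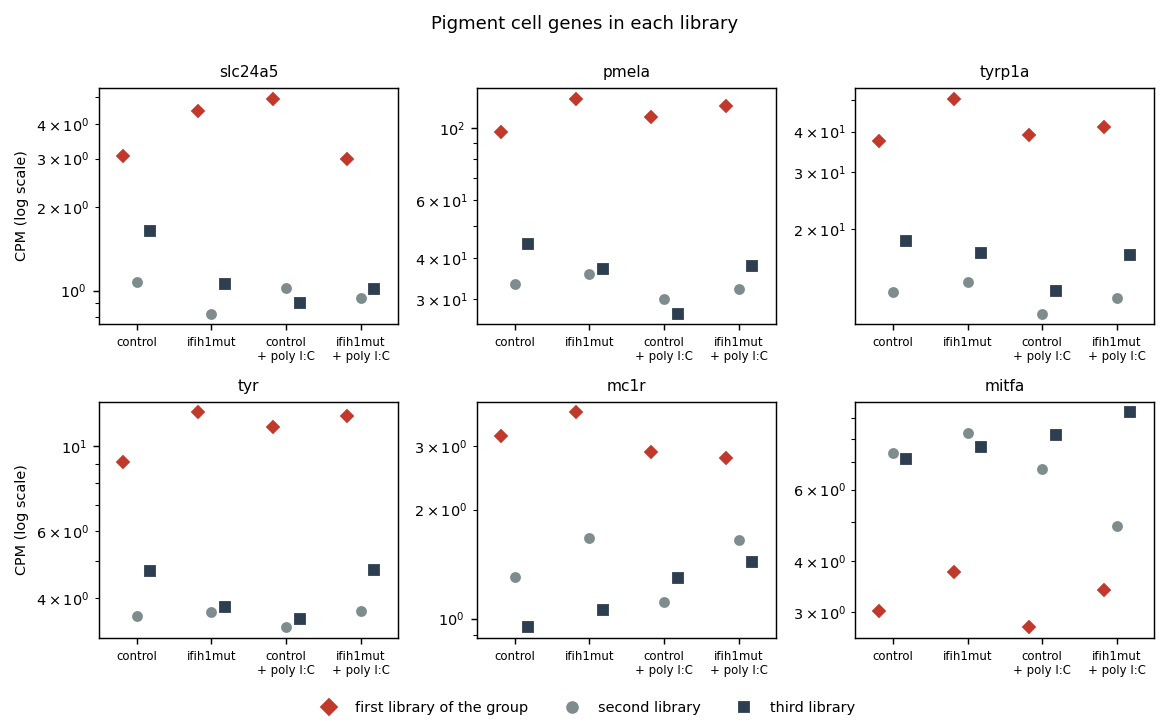
Levels of 6 pigment genes in each library, as CPM on a log axis, with libraries grouped by treatment and genotype and coloured by set; every point is 1 pool of 25 larvae. The set 1 point lies above both others of its group for slc24a5, pmela, tyrp1a, tyr and mc1r and below them for mitfa.

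The transcription factor that drives these genes did not follow them. The melanocyte regulator mitfa was at 3.02, 3.77, 2.75 and 3.41 CPM in set 1 and at 4.87 to 9.29 CPM, median 7.51, in the other sets, a difference of -1.20 (SE 0.15) with no overlap. A relative expressed in pigment cells, tfec, was also below the others in every group (-0.50, SE 0.11). The second premelanosome gene, pmelb, had the opposite sign to pmela (-0.68, SE 0.14). Another marker of the lineage, crestin, a transcript of neural crest cells, was at 1.14 to 1.61 CPM in set 1 and 2.66 to 6.25 CPM elsewhere (-1.59, SE 0.13). The later sets also differed, at 2.66 to 3.35 CPM in set 2 and 4.16 to 6.25 CPM in set 3. These counts are from 1 place on chromosome 4 (47257854 to 47262290), where many genes were counted, as described further on.

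Other melanin genes had smaller differences or failed in a group. The enzyme dct was at 51.8, 66.8, 64.8 and 69.8 CPM in set 1 and at 29.0 to 55.2 CPM elsewhere (0.75, SE 0.14), with A83 above A81 among the controls. The melanosome channel oca2 (1.05, SE 0.29) was likewise not above both others in the control group. Differences were 0.58 for the melanosome receptor gpr143 and 0.31 for the channel trpm1b.

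The remaining pigment cell genes named here were mixed. The guanosine pathway gene pnp4a, a marker of iridophores, had a difference of 0.79, and aox5 of xanthophores one of 0.74, both above the other libraries in every group. The kit receptor kita (0.08) and the pteridine gene gch2 (0.16) were near the median of all genes. For slc45a2, a melanosome transporter lost in the albino mutant, the chromosomal gene differed by 0.29 (SD 0.20 over the 4 groups, on the log2(CPM + 0.5) scale used for copies). Its alternate copies differed by 1.92 (SD 0.25), at 6.60 to 9.78 CPM in set 1 against 1.38 to 2.46 CPM in the others. Chromosome and copies together differed by 1.18 (SD 0.07).

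Photoreceptor genes were higher in set 1 in a graded way and in both rods and cones. Of 46 photoreceptor and phototransduction genes tested, 40 had a positive difference, 24 lay above both other libraries in all 4 groups (52.2%, against 9.53% of all genes) and 0 lay below in all 4, with a median difference of 0.49. The median was positive within each group, at 0.41 in control, 0.34 in Tg(ifih1_mut), 0.58 in stimulated control and 0.53 in stimulated Tg(ifih1_mut) larvae. The 1 member counted higher was pde6ha, an inhibitory subunit of the cone phosphodiesterase.

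The set 1 libraries held 41.2, 35.6, 27.7 and 35.2 CPM of pde6ha and the others 6.66 to 19.5 CPM, median 14.2 (difference 1.4, SE 0.10). Cone arrestin, arr3a, which shuts off activated opsins, was at 127, 127, 127 and 124 CPM in set 1 and 55.6 to 100 CPM, median 81.1, elsewhere. Rod transducin, gnat1, was at 61.4 to 72.3 CPM against 26.1 to 59.11 CPM. For arr3a and gnat1 the sets did not overlap, with differences of 0.73 (SE 0.10) and 0.65 (SE 0.09). The rod opsin rho overlapped slightly, at 841, 965, 699 and 871 CPM in set 1 and 382 to 731 CPM in the rest (0.56, SE 0.10). The ultraviolet opsin opn1sw1 had a difference of 0.49 (SE 0.11). Among the 6 members below 0 were rpe65a and aanat2, at -0.40 and -0.22, which act in the retinal pigment epithelium and in melatonin synthesis.

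Sets 3 and 2 were also compared with each other, which the choice of set 1 did not use. Of the 46 genes, 4 passed as lower in set 3 and 0 as higher (edgeR adjusted p under 0.05). Among all genes 3.54% passed as lower and 4.92% as higher. The median difference between sets 3 and 2 was -0.22. Lens genes did not follow the retina: of 56 crystallin and lens membrane genes, 3 lay above and 3 below, with a median of -0.02. The shares were 5.36% each, against 9.53% above and 7.87% below among all genes. Of 40 neuronal genes, 30 had a positive and 10 a negative difference, with a median of 0.08. In all groups 2 lay above (5%, against 9.53% of all genes).

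Genes of protein synthesis and breakdown were slightly lower in set 1 across nearly the whole list. Of 77 cytosolic ribosomal protein genes, 75 had a negative difference, 22 lay below in all 4 groups (28.6%, against 7.87% of all genes) and 1 above, with a median of -0.26. All 36 proteasome genes had a negative difference, with a median of -0.13, although only 1 lay below in every group (2.78%, against 7.87%). The size was small for most members and larger for some. The gene rpl13a, for a protein of the large subunit, was at 143 to 177 CPM in set 1 and 197 to 327 CPM in the others (-0.58, SE 0.10). The lowest member was rpl10 (-0.79, SE 0.15), at 11.9 to 18.5 CPM against 21.3 to 37.0 CPM, without overlap.

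The exception among ribosomal genes was rpl21, at 179, 161, 179 and 168 CPM in set 1 and 19.4 to 135 CPM, median 66.0, in the others (1.61, SE 0.25). Its copies on alternate contigs differed the other way, at 88.4 to 116 CPM in set 1 and 180 to 359 CPM elsewhere. Added together the rpl21 loci gave 256 to 294 CPM in set 1 and 277 to 383 CPM in the rest, a difference of -0.23 (SD 0.11 over the groups), close to the median of the list. The rpl21 values were not alike in the later sets: A76 and A82 were at 19.4 and 24.0 CPM, A80 and A74 at 133 and 135 CPM.

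Red cell genes were mostly lower in set 1, with 30 of 39 differences negative and 9 positive. Of the 39 erythroid and globin genes, 9 lay below in every group (23.1%, against 7.87%) and 0 above, with a median of -0.16. The embryonic beta globin hbbe1.1 (chromosome 3, 55114097 to 55114874) was at 59.8 CPM in control, 530 in Tg(ifih1_mut), 66.7 in stimulated control and 539 in stimulated Tg(ifih1_mut) larvae of set 1. In the other libraries it ranged from 799 to 2142 CPM, with a median of 1099 CPM. The difference was -2.51 (SE 0.41).

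Control pools lay below Tg(ifih1_mut) pools in every set. In sets 2 and 3 the 4 control pools were at 799, 812, 889 and 925 CPM and the 4 transgenic pools at 1274, 1364, 1617 and 2142 CPM. The gap was wider in set 1, but the difference in the gap did not pass over all genes: the genotype term of hbbe1.1 was 2.18 (SE 0.29, unadjusted p = 6.3e-05 in edgeR, adjusted p = 1.00). The neighbouring globin hbbe1.2, which is close enough in sequence that reads may be split between them, had a difference of 0.65: the sum of both genes differed by -2.04 (SD 0.76). Other red cell genes showed small differences, with klf1, an erythroid transcription factor, at -0.74 (SE 0.18) and rhd, an ammonium transporter of the Rh family, at -0.95 (SE 0.16). The alpha globin hbae3 was at 1320.5 to 1645 CPM in set 1 and 1248 to 2225 CPM in the rest (-0.09, SE 0.07), so that set 1 lay within the range of the others.

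Genes of the hatching gland, which releases the enzymes that dissolve the egg envelope, were low in set 1 for a few members. The hatching enzyme he1.1 was at 2.77, 1.18, 4.76 and 6.87 CPM in set 1, at 5.45 to 11.2 CPM in set 2 and at 18.1 to 59.3 CPM in set 3. Each set 1 value was the lowest of its group, but the sets overlapped over groups (-2.19, SE 0.26). The gland's protease ctslb (ENSDARG00000039173) had a difference of -1.99 (SE 0.69) at levels of at most 1.45 CPM. The second hatching enzyme gene he1.2 went the other way, by 0.30 (SE 0.34), at levels of at most 2.26 CPM. The gene npsn had a difference of -0.01 (SE 0.09), and the list of 11 genes had a median of -0.29.

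The calcium channel trpv6, a marker of the ionocytes that take up calcium through the skin (chromosome 16, 12294284 to 12319822), was ordered over all 3 sets. It was at 15.9, 18.3, 15.4 and 14.2 CPM in set 1, 24.9 to 29.3 CPM in set 2 and 58.6 to 84 CPM in set 3. The set 1 difference was -1.51 (SE 0.09). Of 28 ionocyte genes, trpv6 among them, 21 had a negative difference, with a median of -0.12. In all groups 4 lay below (14.3%, against 7.87% of all genes) and 3 above (10.7%, against 9.53%). Copies of trpv6 on alternate contigs were at 7.41 to 9.06 CPM in set 1 and 0.411 to 8.67 CPM in the others. With the copies added the difference was -1.02 (SD 0.13), and the sets still did not overlap.

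Digestive genes were mixed. Of 20 exocrine pancreas genes, 5 lay below in all groups (25%, against 7.87% of all genes) and 3 above (15%, against 9.53%), with a median of -0.34. The chymotrypsin-like gene ctrl was at 13.1 to 15.8 CPM in set 1 and 21.8 to 52.6 CPM elsewhere (-1.17, SE 0.14). In contrast, the lipase gene cel.2 was at 1.61 to 3.08 CPM against 0.282 to 1.23 CPM (1.80, SE 0.16). The protease gene prss60.2 was at 0.865 to 1.38 CPM in set 1 and at 0 to 0.028 CPM in the other 8 libraries (6.16, SE 0.40). The pancreas list was also lower in set 3 than in set 2, with 8 of 20 genes passing as lower and 0 as higher, against 3.54% and 4.92% of all genes, and a median of -0.48.

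Immune genes had no common direction. Of 48 interferon-stimulated genes, 1 lay above and 1 below in all groups, with a median of -0.18. The shares were 2.08% each, against 9.53% above and 7.87% below among all genes. The level of isg15, a ubiquitin-like modifier, was 155 CPM in the stimulated Tg(ifih1_mut) library of set 1 and at 121 and 277 CPM in those of sets 2 and 3. Of 44 genes of inflammation, 35 had a positive difference and 5 lay above in all groups (11.4%, against 9.53% of all genes), with a median of 0.32. Within the groups that median was 0.56 in control, 0.32 in Tg(ifih1_mut), 0.18 in stimulated control and -0.38 in stimulated Tg(ifih1_mut) larvae.

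The set 1 levels of the cytokine il1b fell in the same order of groups, although levels, unlike differences, also carry what separates the groups themselves. In set 1 il1b was at 10.1 CPM in control, 5.70 in Tg(ifih1_mut), 2.91 in stimulated control and 0.546 in stimulated Tg(ifih1_mut) larvae. Elsewhere il1b ranged from 0.420 to 2.47 CPM in set 2 and from 1.97 to 8.28 CPM in set 3. Its poly I:C term was -3.98 (SE 1.58, edgeR unadjusted p = 0.0356, adjusted p = 1.00). Of 40 complement and acute phase genes, 8 lay above in all groups (20%, against 9.53% of all genes) and 3 below (7.5%, against 7.87%). They included c3a.3, a complement component, at 54.9 to 101 CPM in set 1 and 16.1 to 45.9 CPM elsewhere (1.06, SE 0.21), and hamp, the iron hormone hepcidin (1.3, SE 0.30). Another gene of the complement family, c3a.2, had the opposite sign (-0.86, SE 0.12).

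Most other programmes lay near the median of all genes. The medians were 0.03 for liver, 0.03 for heart, -0.06 for skeletal muscle contraction, -0.04 for cartilage and bone, -0.05 for epidermis and 0.04 for endothelium. Cholesterol synthesis had a median of 0.16 and the cell cycle one of 0.04. Among 51 cell cycle genes 10 lay above in all groups (19.6%, against 9.53% of all genes) and 3 below (5.88%, against 7.87%), while 26 differences were positive and 25 negative. In the stress lists, 25 of 29 oxidative stress genes had a negative difference, with a median of -0.09, and the heat shock median was -0.04.

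**Figure D2:**
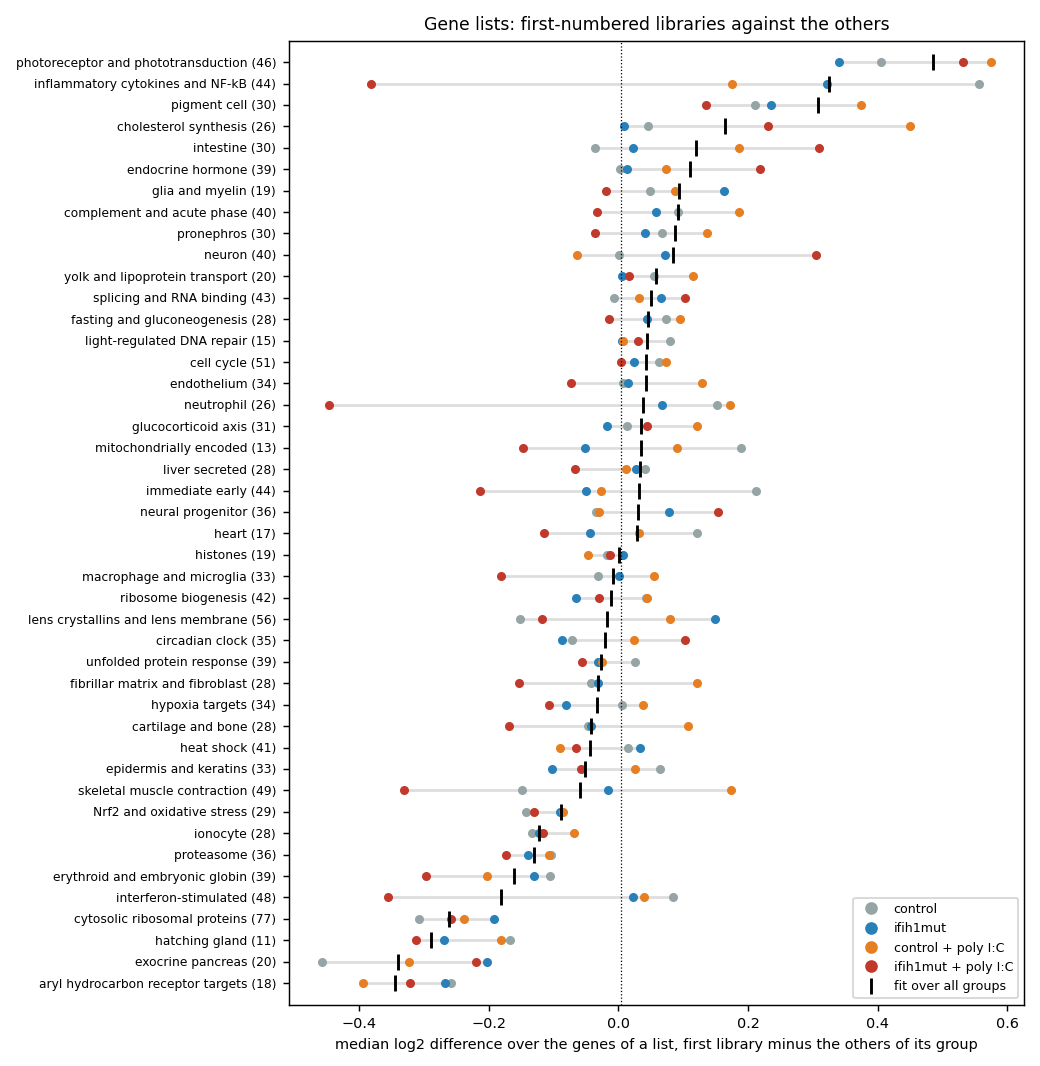
Median log2 difference between set 1 and the other sets for the gene lists, with 1 point per group on the log2(CPM + 0.5) scale, a black bar for the fit over all 4 groups and a dotted line at the median of all genes. Photoreceptor and pigment cell genes lie to the right in all groups, and ribosomal, hatching gland and aryl hydrocarbon receptor genes to the left. The median difference of set 3 minus set 2 was 0.55 for hatching gland and 0.54 for aryl hydrocarbon receptor genes. The place of these lists to the left therefore depends in part on high levels in set 3.

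Several of the larger differences were in single genes with counts in set 1 and almost none in the other sets, or the reverse. Counts at 1 listed place do not tell a change of expression from reads counted elsewhere. The gene cthl (chromosome 6, 37389683 to 37403444) was at 9.59, 5.29, 6.15 and 6.04 CPM in set 1 and at 0 to 0.193 CPM, median 0.060, in the rest (6.68, SE 0.29). Its neighbour cth, which encodes the cysteine-forming enzyme cystathionine gamma-lyase, differed by -0.12. The gene ggact.3 (chromosome 1, 2446996 to 2453185) was at 6.62 to 7.18 CPM in set 1 and at 0 to 0.205 CPM in 6 others, while A80 and A74 of the stimulated groups in set 3 held 2.14 and 2.96 CPM. Its difference was 5.45 (SE 0.84).

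In the other direction, PTGR1 (1 of many), annotated as a prostaglandin reductase, was at 0.181 to 0.345 CPM in set 1 and 1.98 to 8.40 CPM elsewhere (-4.13, SE 0.27). It lies next to ptgr1 on chromosome 7, which was also lower, at 7.39 to 10.304 CPM against 15.12 to 52.7 CPM (-1.65, SE 0.10). The sum of both differed by -1.76 (SD 0.24). The repressor of the aryl hydrocarbon receptor, ahrrb, was at 0 to 0.115 CPM in set 1 and 0.264 to 3.21 CPM in the others (-3.14, SE 0.43). Its levels in the other sets were themselves split, with 0.264 to 0.306 CPM in set 2 and 0.986 to 3.21 CPM in set 3.

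The counted genes lay in groups along the genome. Of the 561 counted-higher genes on chromosomes, 189 (33.7%) had a neighbouring tested gene that was also counted higher, against 3.76% of the genes that were not counted. Of 271 counted-lower genes, 65 (24.0%) had a counted-lower neighbour, against 2.01%. Of 1357 windows of 1 Mb, 925 (68.2%) held no counted gene, while 35 windows with 5 or more held 218 of the 832 counted genes. Chromosome 4, whose long arm is rich in repeats and in duplicated gene families, held 132 higher and 43 lower of 1342 genes (13.0%), against 3.09% on all other chromosomes together.

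A block of chromosome 6 shows such a run of genes. Between 33881372 and 34036231 the counts on the chromosome were higher in set 1 for all 7 tested genes: gpbp1l1 (3.55), nasp (3.15), akr1a1b (3.5), prpf38a (2.90), orc1 (4.32), tie1 (3.80) and si:ch73-185c24.2 (7.58). They have unrelated roles, nasp in carrying histones, prpf38a in splicing, orc1 in starting DNA replication and tie1 as a receptor of the vessel wall. The flanking genes were tmem69 (-0.03, SE 0.29) and lrp8 (-0.39, SE 0.14). Further along, rgs4 (2.33), rgs5a (4.61) and rgs16 (5.97), regulators of G-protein signalling that lie side by side, were higher while rgs8 next to them differed by -0.45. With alternate copies added, as described further on, gpbp1l1, akr1a1b, prpf38a and orc1 were not higher but had sums of -0.14, -0.23, -0.17 and -0.41. The sums were 0.21 for tie1, 0.46 for rgs4, 0.02 for rgs5a and 0.04 for rgs16, each with overlap between set 1 and the others.

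Within this block the values were steady over the groups. The set 1 libraries held 13.3, 13.3, 13.8 and 13.6 CPM of gpbp1l1, and the other 8 held 0.879 to 1.44 CPM, median 1.21. For orc1 they held 3.1, 3.34, 2.87 and 3.12 CPM on the chromosome against 0.117 to 0.191 CPM. Most counts of orc1 lay on its alternate copy and went the other way, at 7.02 to 8.59 CPM in set 1 and 11.8 to 17.1 CPM elsewhere. The sum of both was lower in set 1, at 10.12 to 11.7 CPM against 11.97 to 17.3 CPM, without overlap (-0.41, SD 0.06). The gene nasp was an exception in 1 group: it was at 15.6 to 23.2 CPM in set 1 and 1.12 to 2.11 CPM in 6 other libraries, but at 11.4 and 7.03 CPM in the other 2 control libraries.

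On chromosome 1, 7 of the 8 tested genes between 9100447 and 9249943 had a difference below -1, the exception being si:dkeyp-57d7.4 (-0.18, SE 0.17). Among them were ndufab1a, an acyl carrier protein of mitochondria (-1.47, SE 0.09), palb2, a partner in DNA repair (-1.48, SE 0.21), ern2, a sensor of unfolded proteins (-1.02, SE 0.20), and chtf18, which loads the replication clamp (-1.16, SE 0.13). The next gene beyond the stretch, uncx4.1, differed by -0.03 (SE 0.07). On the other side the differences were also negative, so the stretch had no sharp edge there. They were -1.14 (SE 0.58) for cacng3a, -0.97 (SE 0.27) for BX004779.2 and -0.54 (SE 0.11) for prkcba. Pairs of leading genes were also neighbours elsewhere: sema3bl and sema3b on chromosome 8 (3.21 and 2.93, with sema3b turning to -0.17 once its alternate copies were added), fam198a and entpd3 on chromosome 16 (2.77 and 2.58), and actc1a and rrm2 on chromosome 19 (2.97 and 2.53).

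A larger share of genes was counted on alternate contigs than on chromosomes. Of 3356 tested genes on alternate contigs, 293 were higher and 144 lower (13.0%), against 561 and 271 of 22590 on chromosomes (3.68%). The share also differed by kind of gene: on chromosomes it was 6.86% for assembled genes without a name and 3.49% for annotated genes. Of 96 contigs with at least 2 counted genes, 61 had only higher, 24 only lower and 11 both. Among 391 contigs with at least 4 tested genes, 32 had a majority counted, 23 of them higher and 9 lower, and 243 (62.1%) had none. On 1 contig of chromosome 18 all 9 tested genes were higher (median 2.09), and on 1 of chromosome 21 all 6 were lower (median -3.45).

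The deposited descriptions allow a gene on a chromosome to be paired with its copies on alternate contigs. A copy was taken as an assembled gene on an alternate contig whose description names the same symbol, with or without the zebrafish suffix a or b, within 1 Mb on the same chromosome. By this rule, chosen after the data were seen, 1837 alternate genes were matched to 1627 chromosomal genes. Of the chromosomal genes with a copy, 7.93% were counted, against 3.13% of the 19680 without.

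In most pairs the copy differed in the opposite direction, and the sum differed little. Of 129 counted chromosomal genes with a copy, 112 (86.8%) had copies of the opposite sign, with a median size of difference of 1.16 for the chromosomal gene, 0.49 for the copies and 0.17 for their sum. The summed level differed by under 0.5 for 114 of them and by more than 1 for 3, which were tdo2a (1.00), ptgr1 (-1.10) and trpv6 (-1.02). Of 250 genes with a counted copy, 226 (90.4%) had the opposite sign on the chromosome, with a median size of the sum of 0.15. Over all 1627 genes the opposite sign was seen in 69.5%, and the median size of the sum was 0.11. The genes were selected on 1 of the values in each sum, so that a smaller size of the sum is in part a result of the selection.

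**Figure D3:**
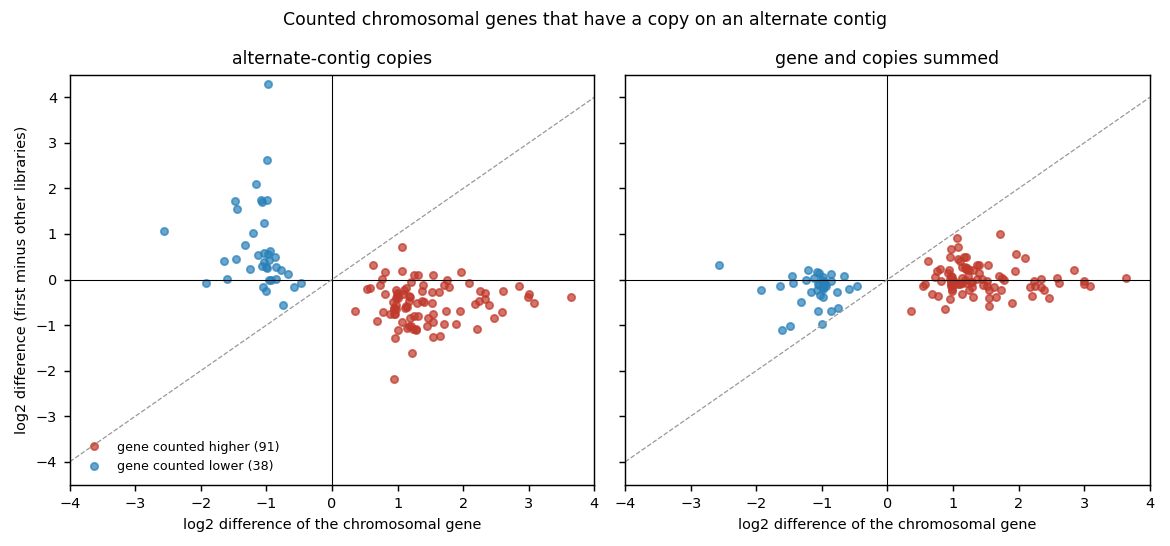
For 129 genes counted on the chromosome, 91 higher and 38 lower, the log2 difference of the chromosomal gene is on the x axis of both panels and that of its alternate copies (left) or of chromosome and copies summed (right) on the y axis. Points lie on the opposite side of 0 in the left panel for 112 genes and within 0.5 of 0 in the right panel for 114.

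The block on chromosome 6 gives examples. The alternate copies of gpbp1l1 were at 40.9, 38.1, 42.6 and 42.1 CPM in set 1 and 52.6 to 62.9 CPM, median 59.6, elsewhere. Summed with the chromosomal gene they gave 51.4 to 56.4 CPM in set 1 and 53.8 to 64.1 CPM in the others (-0.14, SD 0.03 over the groups), against 3.08 (SD 0.10) for the chromosomal gene alone. Most reads of gpbp1l1 were thus counted on the alternate contig in every library. For the vessel receptor tie1 the chromosomal gene differed by 2.85 (SD 0.42), its copies by -0.14 (SD 0.20) and the sum by 0.21 (SD 0.20). The signalling regulator rgs5a showed 3.64 (SD 0.15), -0.39 (SD 0.09) and 0.02 (SD 0.11) for the same 3 quantities.

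On chromosome 1 the signs were exchanged. The chromosomal ndufab1a was at 18.1, 24.0, 22.2 and 19.7 CPM in set 1 and 48.4 to 63.8 CPM in the rest, and its copies were at 48.5 to 54.7 CPM against 9.49 to 30.1 CPM. The sum was 69.5 to 77.6 CPM in set 1 and 67.6 to 89.8 CPM elsewhere (-0.07, SD 0.07). In the same stretch chtf18 differed by -1.08 on the chromosome, by 1.76 on its copy and by -0.22 in sum. Elsewhere on chromosome 1, for ufsp2, a protease of the ubiquitin-like UFM1 system, the copies were at 13.4 to 15.14 CPM in set 1 and 0.153 to 0.411 CPM in the others. The chromosomal ufsp2 was at 15.6 to 16.4 CPM against 28.2 to 37.2 CPM, and the sum differed by -0.10 (SD 0.05).

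Some sums did not come back to the level of the other sets. The ubiquitin ligase scaffold cul1a was at 1.04 to 2.76 CPM on chromosome 2 in set 1 and 10.4 to 16.5 CPM in the rest, with copies at 32.2 to 41.6 against 10.4 to 20.3 CPM. Its sum was 34.5 to 42.6 CPM in set 1 and 26.9 to 30.9 CPM elsewhere, higher by 0.32 (SD 0.17) without overlap. For fan1, a nuclease of DNA repair, the sum was 6.15 to 9.42 CPM in set 1 and 1.02 to 2.2 CPM in the others (1.96, SD 0.31). The copies of mylpfa named above differed by -0.67 (SD 0.15), with almost no counts on the chromosome.

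**Figure D4:**
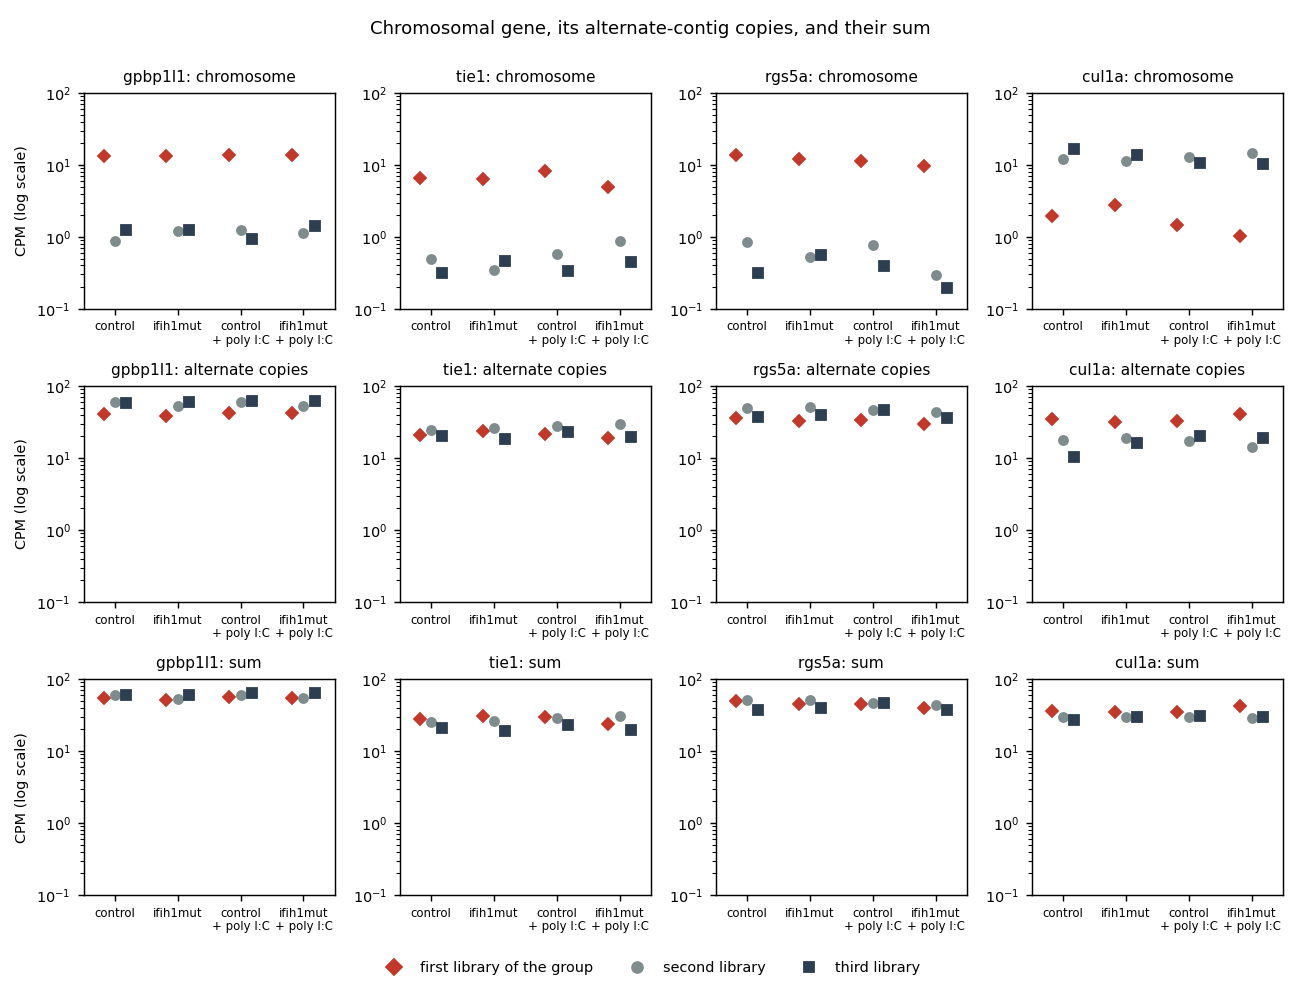
Levels in CPM of gpbp1l1, tie1, rgs5a and cul1a in each library, counted on the chromosome, on the alternate copies and in sum, coloured by set. The chromosomal values of set 1 stand apart for all 4 genes, and the sums overlap between sets for gpbp1l1, tie1 and rgs5a but not for cul1a.

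Sums were also taken over 6 sets of related genes chosen after their values were seen, and 3 of them came close to 0. The cardiac actin gene actc1a is listed on chromosome 19 (45.5 to 78 CPM in set 1, 5.28 to 10.7 CPM elsewhere) and on chromosome 20, where the difference was -0.29. The sum of both differed by -0.11 (SD 0.07). Next to each actc1a lies a gene called rrm2, a subunit of ribonucleotide reductase, with differences of 2.53 on chromosome 19 and -0.90 on chromosome 20 and a sum of -0.09 (SD 0.05). The annexins anxa1b and anxa1c, neighbours on chromosome 5, differed by -1.11 and 1.05, and their sum by 0.11 (SD 0.17). The other 3 did not: the sums were -2.04 for hbbe1.1 with hbbe1.2, -1.76 (SD 0.24) for both ptgr1 genes and -1.84 (SD 0.38) for the glutathione transferases mgst1.2 and mgst1.1.

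Most counted genes have no copy by this rule. Of 744 counted annotated genes on chromosomes, 615 had none, and of the 30 leading named genes 19 had none. The pigment genes slc24a5, pmela, tyrp1a and tyr, which are not among those 30, had none either. When copies were added to their chromosomal genes before the fit, 600 genes were counted higher and 315 lower of 24671 (3.71%).

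The sets that set 1 was compared with differed from each other. Between set 3 and set 2, 1303 genes (4.92%) were higher and 939 (3.54%) lower in set 3 (edgeR quasi-likelihood test, adjusted p under 0.05). Of the 1301 genes counted for set 1, 97 (7.46%) were among these 2242, against 8.46% of all genes. The test treats the 8 libraries of these sets as separate observations, although those of the same number and stimulation were alike, as described further on, so its p-values are too small if such libraries share a source. With the control and the Tg(ifih1_mut) library of the same set and stimulation summed, which leaves 6 sums and 2 residual degrees of freedom, edgeR called 9 genes, all higher in set 3, and 3566 had an unadjusted p under 0.05. Among the genes named here, in that fit cyp1a, cyp1c1 (both adjusted p = 0.0024), ankrd9, cyp1c2, per1b, per2 and trpv6 passed, and hsp90b1, calr, ca4b, kcnj1a.2, pvalb8, he1.1, isg15 and stat1b did not (edgeR adjusted p from 0.055 to 0.16). The count over single libraries was also uneven: it was 779 without A76, 836 without A82, 885 without A77 and 1123 without A83.

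The genes that set 3 had at higher levels included targets of the aryl hydrocarbon receptor, a sensor of planar aromatic compounds. The monooxygenase cyp1a was at 1149 CPM in control, 1252.5 in Tg(ifih1_mut), 1137 in stimulated control and 1010 in stimulated Tg(ifih1_mut) larvae of set 3. In set 2 it was at 17.1 to 28.6 CPM, and in set 1 at 25.6, 84.4, 24.0 and 73.2 CPM in the same order of groups. The difference between sets 3 and 2 was 5.66 (SE 0.38, edgeR adjusted p = 5.5e-05). Set 1 was therefore near set 2 for cyp1a, with both transgenic libraries above both controls. Related genes were cyp1c1 (3.34, SE 0.10, edgeR adjusted p = 1.2e-07) and cyp1c2 (2.35, SE 0.14, edgeR adjusted p = 3.4e-05), and 9 of 18 receptor target genes passed as higher in set 3 and 1 as lower, against 4.92% and 3.54% of all genes.

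Clock and light-responsive genes also separated sets 3 and 2, with set 1 between. The repressor per2 was at 191 to 228 CPM in set 3, 61.9 to 76 CPM in set 2 and 102 to 142 CPM in set 1. Its difference between sets 3 and 2 was 1.62 (SE 0.07, edgeR adjusted p = 5.8e-06), and that of per1b was 1.81 (SE 0.10, edgeR adjusted p = 2.4e-05). Of 35 clock genes 19 passed as higher in set 3 and 1 as lower, and of 15 light-regulated DNA repair genes 9 passed as higher, against 4.92% (higher) and 3.54% (lower) of all genes. For set 1 against the mean of the others the medians of these lists were -0.02 and 0.04.

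Chaperones of the endoplasmic reticulum went the other way. The chaperone hsp90b1 was at 200 to 234 CPM in set 3, 349 to 410 CPM in set 2 and 281 to 304 CPM in set 1 (set 3 minus set 2, -0.82, SE 0.08, edgeR adjusted p = 0.00037). The calcium-binding chaperone calr differed by -0.64 (SE 0.06, edgeR adjusted p = 0.00037), and 14 of 39 unfolded protein genes passed as lower, against 3.54% of all genes. The carbonic anhydrase ca4b (-1.39), the potassium channel kcnj1a.2 (-1.26) and the calcium buffer pvalb8 (-0.86) were lower in set 3 as well. Of 48 interferon-stimulated genes 10 passed as higher in set 3, against 4.92% of all genes, and 0 as lower, among them isg15 (1.03, SE 0.27, edgeR adjusted p = 0.045) and the transcription factor stat1b (1.90, SE 0.37, edgeR adjusted p = 0.014). Genes lowest in set 1 and highest in set 3, he1.1 and trpv6, passed in this test with 1.95 (edgeR adjusted p = 0.0036) and 1.37 (edgeR adjusted p = 7.7e-05).

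**Figure D5:**
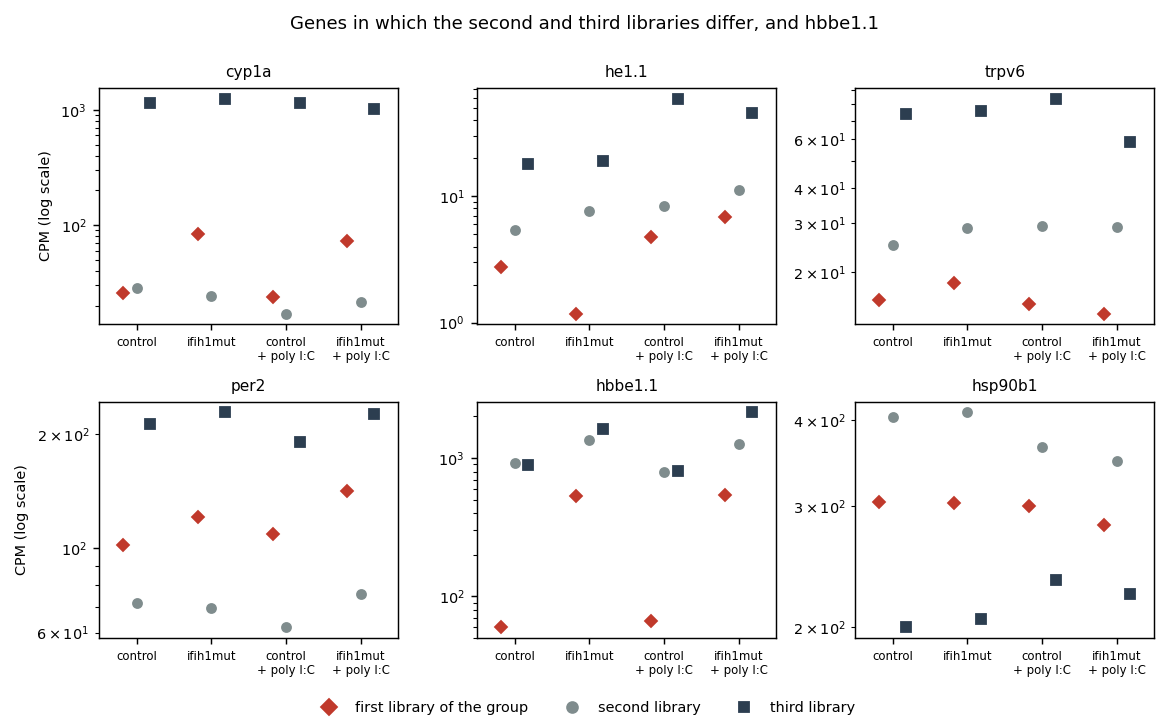
Levels in CPM on a log axis of cyp1a, he1.1, trpv6, per2, hbbe1.1 and hsp90b1 in each library, coloured by set. Set 3 stands apart for cyp1a, set 1 for hbbe1.1, and the 3 sets are ordered for trpv6, per2 and hsp90b1.

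The likeness of libraries was described by the correlation, across genes, of their deviations from the group mean on the log2(CPM + 0.5) scale. Genes are not independent, and the 3 deviations of a group sum to 0, so that unlike set numbers tend to negative values. The 6 pairs within set 1 had r from 0.61 to 0.78. In sets 2 and 3, the 4 pairs with the same number and the same stimulation, a control with a Tg(ifih1_mut) library, had r from 0.44 to 0.77. The 8 pairs with the same number but different stimulation had r from 0.28 to 0.43, and the 36 pairs of different numbers from -0.60 to 0.18. Within set 1 the highest r was that of an unstimulated pair, A75 with A81. The r values within set 1 come from the levels by which it was singled out, so they describe it and are not evidence for it. The later sets fell into unstimulated and stimulated pairs, although the ranges nearly met, at 0.44 (A73 with A79) and 0.43 (A77 with A80).

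Single genes showed these pairs. The membrane protein gene ms4a17a.9 was at 13.5 and 13.3 CPM in A76 and A82 and at 5.08 and 5.01 CPM in A77 and A83, the unstimulated libraries of sets 2 and 3. In the stimulated libraries it was at 6.60 and 6.96 CPM in A73 and A79 and at 11.9 and 11.3 CPM in A74 and A80. Set 1 held 2.63 to 3.80 CPM of ms4a17a.9 in all 4 groups (-1.56, SE 0.34). On its chromosome, the ADP/ATP carrier slc25a4 was at 63.5 and 70.9 CPM in A76 and A82. It was at 4.79 to 9.77 CPM in set 1 and 9.80 to 78.9 CPM over the other sets. Most counts of slc25a4 lay on its alternate copy, at 257 to 338 CPM in set 1 and 250 to 400 CPM elsewhere. The sum of both overlapped between the sets (-0.22, SD 0.18). The neighbours fam198a and entpd3 had intermediate levels in A76 and A82, at 3.68 and 3.92 CPM for fam198a, against 8.51 to 11.2 CPM in set 1 and 0.789 to 1.16 CPM in the remaining 6.

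The last question was whether the set 1 difference depended on the study's own factors, which the choice of set 1 did not use. The difference was compared between stimulated and unstimulated groups, between genotypes, and for both together. No gene passed in edgeR in any of the 3 comparisons (0 of 26508 each), and DESeq2 called 6, 2 and 0. In edgeR 399, 324 and 200 genes had an unadjusted p under 0.05. These are 1.51, 1.22 and 0.754% of all genes, fewer than a threshold of 0.05 gives by chance alone. The fit had 4 residual degrees of freedom. It took the libraries of sets 2 and 3 as replicates, so differences between these sets entered its error and made it harder for a gene to pass. With a term for set 3 against set 2 added, 763, 590 and 408 genes had an unadjusted p under 0.05 in edgeR, again fewer than by chance alone. These counts do not show that the differences were equal in all groups.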

How the data were processed

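RNA of 12 pools was sequenced, and the authors deposited 3 tables of read counts per gene, unnormalised whole numbers for 6 libraries each, per the file headers. The sources used here do not give the aligner, counter, genome build, library kit or strand handling, so reads shared by copies, overlapping genes or antisense genes may be split. The tables were joined by gene identifier. Of 187002 counts given more than once 0 differed, and a value missing from a table (6372, in 1484 genes) was taken as 0. Among the authors' other columns per sample, 36 of normalised values and FPKM were not used. Column names give a group and a library number but not the replicate of the sample titles, and they were not linked to single samples.

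Genes were kept by edgeR 4.0.16 (R 4.3.3) with a minimum count of 10, leaving 26508 of 32349, and normalised by TMM. The quasi-likelihood fit had group and set (3 levels) as terms with 6 residual degrees of freedom. A second fit gave each group and set class its own term for the interactions. P-values were adjusted by Benjamini-Hochberg over all genes tested. The fits were tested on simulated counts drawn independently for each library, which cannot show how they behave if libraries share a source. The symbols of 44 gene lists and the libraries of set 1 were chosen with earlier results of these data known, so shares within lists describe and do not test. Named genes were the 15 largest differences in each direction among counted genes with an average log2 CPM of at least 1 and an official symbol, up to 4 counted members of each list, 5 fixed genes (ifih1, isg15, stat1b, il1b and cyp1a) and up to 5 genes in each direction of each test. Genes named outside this rule, including flanking genes, family members, copies and uncounted list members, were chosen after their values were seen. Levels are TMM-normalised CPM, and differences of copies and sums are means over the 4 groups of log2(CPM + 0.5). Counts per library bound the precision, and errors are standard errors of the fit or SDs over the 4 groups.

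Alternatives were RLE size factors, no filter, at least 1 CPM in 4 libraries, DESeq2 1.42.0, thinning to 31876869 counts, each other set alone, a term for set 3 against set 2, and leaving out each library. Adding copies to their chromosomal gene, using annotated chromosomal genes alone and summing libraries of the same set and stimulation were chosen after seeing the data.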

Additional observations from a re-analysis of the deposited data

Results flagged for a closer look

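In groups of 4 values, the highest or lowest was compared with the gap to its nearest neighbour, and 8 of 114 quantities had a value standing apart. Chance alone gives about 1 in 20.

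Among genes, the set 1 difference in 1 group stood apart from those in the other 3 for 5 named genes, on the log2(CPM + 0.5) scale. The difference of nasp was 0.77 in control, where both other libraries held more of it than those of the other groups. The difference of sema3bl was 2.4 in stimulated Tg(ifih1_mut) larvae, that of sema3b 1.82 in stimulated control larvae, that of PTGR1 (1 of many) -2.34 in Tg(ifih1_mut) larvae and that of crestin -1.56 in stimulated Tg(ifih1_mut) larvae.

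Among gene lists, the stimulated Tg(ifih1_mut) group stood apart for 2, with a median difference of -0.36 for interferon-stimulated and -0.45 for neutrophil genes. The total count of A81, 100839015, stood apart from those of the other 3 set 1 libraries. After every library was thinned to 31876869 counts, 849 genes were counted higher and 422 lower, against 871 and 430.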

How the results depend on the processing

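No paired analysis was possible because the library columns do not carry the replicate numbers of the sample titles. The library number is a term of the fit, as the set. The counts of higher and lower genes were 864 and 432 with RLE size factors, 1038 and 490 without a filter, 602 and 317 with at least 1 CPM in 4 libraries, 870 and 436 with DESeq2, 982 and 545 against set 2 alone and 1032 and 594 against set 3 alone. Without 1 library each, they ranged from 892 to 989 and from 427 to 557. With annotated chromosomal genes alone, where fewer genes were tested, they were 514 and 235. With the libraries of the same set and stimulation summed, which leaves fewer observations, the count between sets 3 and 2 was 9, and 5 of its 10 named genes no longer passed. That count ranged from 779 to 2205 without 1 library each, and the poly I:C interaction from 0 to 1, the latter without A82. DESeq2 gave 6 genes for the poly I:C and 2 for the genotype interaction, and the cause was not tested. Interactions could not be fitted without a set 1 library, which leaves no difference in its group.

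Of 1418 recomputed differences of named genes 1299 moved by less than their spread, 110 by more and 9 reversed. The reversals came when the counts of alternate copies were added: gpbp1l1 became -0.14, sema3b -0.17, prpf38a -0.18, cul1a 0.33, tat -0.45, tnc -0.0083, arnt -0.15, klf2a -0.40 and rpl21 -0.24. The photoreceptor median was 0.35 against set 2 alone and 0.49 against both sets. The interferon-stimulated median was 0.19 against set 2 alone and 0.08 without A72, against -0.18.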
